A study of Mus musculus with 66 samples.

Results

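Neurexins, neuroligins and leucine-rich repeat transmembrane proteins (LRRTMs) are cell surface proteins that bind each other across the synaptic cleft. Neurexins sit mainly on the presynaptic side, and neuroligins and LRRTMs on the postsynaptic side, where both families bind neurexins and help to recruit receptors and scaffolds. Neuroligin 1 is known from excitatory synapses, neuroligin 2 from inhibitory synapses and neuroligin 3 from both, while LRRTMs act at excitatory synapses. Here 9 genes of these families were followed by symbol in the deposited count table, out of 30084 symbols: Nrxn2, Nrxn3, Nlgn1, Nlgn2, Nlgn3, Lrrtm1, Lrrtm2, Lrrtm3 and Lrrtm4. All 9 passed the filter on low counts, as did 16145 genes in all.

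The cells were neurons cultured from wildtype mouse embryos at embryonic day 16.5, kept apart by sex. Cultures were left without virus or were given a lentivirus that carries an shRNA, a short hairpin RNA that depletes the matching transcript. The targets were the transcription factor gene Tbr1 and the genes Setd5, Med13l, Mbd5, Kmt2c, Kdm6b, Dnmt3a, Chd8 and Ash1l, and the control hairpin was nontargeting. Per the labels, doses were set for about 50% of the target's level, virus was removed on day 6 in culture and cells were lysed on day 10. Each of the 11 treatments had 3 libraries of polyadenylated RNA per sex, 66 in all. The labels name no hairpin sequence and no brain region, and a culture of this kind mixes cell types. They describe wells infected in triplicate and do not say whether the 3 libraries of a group came from separate cultures, so the p-values measure the spread between these libraries, which may be technical.

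Total counts ranged from 13634872 to 66074822 per library (median 31494162), and the 9 genes had between 130 and 35004 counts each. Levels are given as CPM (counts scaled to the same library size), and fold changes as log2 values against the nontargeting shRNA of the same sex, averaged over the sexes (6 libraries against 6), with standard errors (SE). A gene was called at an edgeR adjusted p below 0.05, adjusted over all 16145 genes of a comparison. All 9 comparisons share the nontargeting libraries. Markers of neurons were high (summed CPM of 7 markers between 6866 and 7763 in the nontargeting libraries), and those of microglia were near 0, with C1qa and Tmem119 too low to test. Ash1l mRNA stood at 25.9% of its control level after Ash1l shRNA (log2 −1.95, SE 0.140, edgeR adjusted p = 7.7e-15), and 8 other targets were also called lower in their own knockdown. The labels of 3 libraries did not match their content. The library labelled Setd5 shRNA, male replicate 1, held 141 CPM of Setd5, against 42.9 and 42.7 in replicates 2 and 3. For the one labelled Kdm6b shRNA male replicate 1, Setd5 stood at 44.9 CPM and Kdm6b at 39.9 CPM, against 17.2 and 17.2 CPM of Kdm6b in replicates 2 and 3. The library labelled Setd5 shRNA female replicate 1 had 612 counts of the Y-linked gene Ddx3y, against at most 12 in the other libraries labelled female.

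In the 12 control libraries (nontargeting shRNA and no virus), the inhibitory synapse gene Nlgn2 and the neurexin Nrxn2 had the highest levels per length of exon. On the scale of CPM per kilobase of exon, Nlgn2 was at 55.1 ± 9.66 (SD, n = 12) and Nrxn2 at 40.8 ± 4.61 (SD, n = 12). Lrrtm1 followed at 18.0 ± 4.10 and Nrxn3 at 17.5 ± 2.72. Lrrtm2 was at 11.7 ± 2.14. Nlgn3 was at 6.50 ± 0.560, Lrrtm3 at 5.55 ± 1.0 and Nlgn1 at 4.97 ± 0.661, and Lrrtm4 was lowest at 1.76 ± 0.376. These SDs are between libraries, and differences between genes were not tested. Exon length merges all annotated transcripts of a gene, whichever of them were present. No member was called between infected and uninfected controls: nontargeting shRNA against no virus gave 0 of 9 members and 0 of 16145 genes (0%) by edgeR's test, with 0 members and 113 genes at an unadjusted p below 0.05 and 0 members by DESeq2. Male against female control libraries also gave 0 of 9, with 0 at an unadjusted p below 0.05 and 0 by DESeq2, while 9 genes (0.0557%) were called.

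Across the 9 knockdowns, 8 of 81 pairs of a member and a knockdown were called, 7 lower and 1 higher, and 15 had an unadjusted p below 0.05. Over all genes, 6.99% of such pairs were called. The 8 calls fell in 3 knockdowns: Ash1l (3), Med13l (4) and Chd8 (1). Nrxn2 was called for Ash1l and Med13l, Nrxn3 for Ash1l, Nlgn3 for Ash1l and Chd8, and Nlgn1, Lrrtm2 and Lrrtm3 for Med13l. Nlgn2, Lrrtm1 and Lrrtm4 had no call in these fits. In males alone 3 pairs were called and in females alone 6, all lower (2.28% and 2.68% of all gene pairs). With the replicate number as a block these counts were 10 and 11, each with 1 higher (7.01% and 7.8% of all gene pairs), and over both sexes 22 of 81 pairs were called, 18 lower and 4 higher (15.5% of all gene pairs). A test of whether the effect differed by sex gave 0 of 81 by edgeR (0.00206% of all gene pairs), with 0 at an unadjusted p below 0.05 and 0 by DESeq2. With the block it gave 0 as well (0.00206% of all gene pairs), with 2 at an unadjusted p below 0.05. No member's response was therefore shown to differ between the sexes, and without the block the smallest unadjusted p of the 81 was 0.108.

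**Figure D1:**
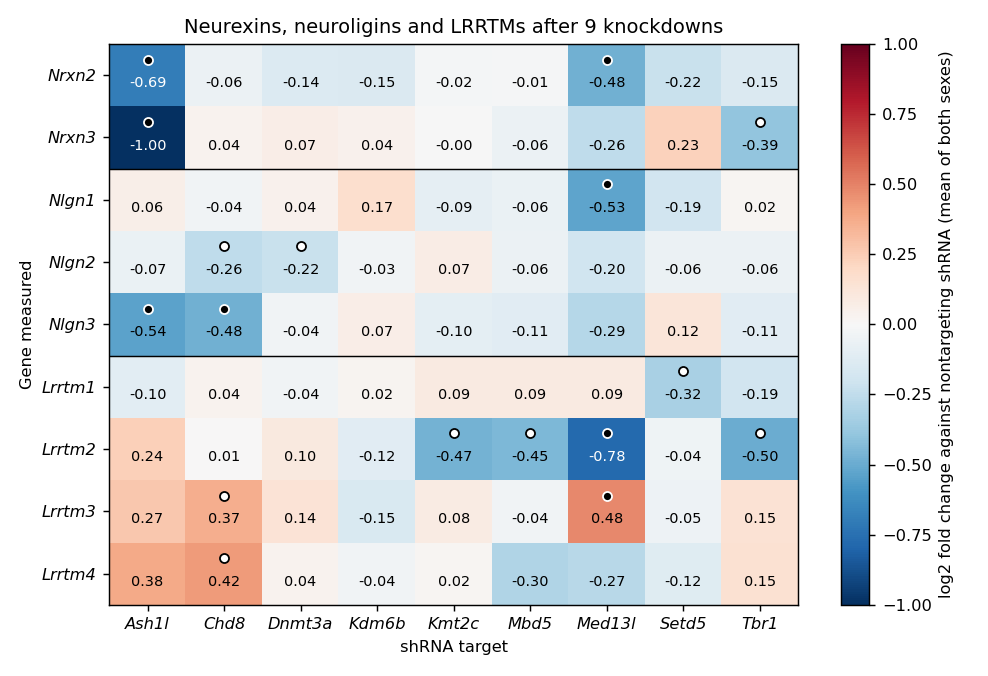
Log2 fold change of each of the 9 genes (rows) after each of the 9 shRNAs (columns) against nontargeting shRNA, mean of both sexes. Filled circles mark an edgeR adjusted p below 0.05. Open circles mark calls made only with the replicate number as a block. They are shown for the 6 knockdowns whose libraries were taken as paired, from their counts. The deepest decreases are Nrxn3 after Ash1l shRNA (−1.0) and Lrrtm2 after Med13l shRNA (−0.78).

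Knockdown of Ash1l, which encodes a histone methyltransferase, was followed by lower mRNA of both neurexins measured here and of Nlgn3. Nrxn3 fell to 50.1% of its control level, Nrxn2 to 61.8% and Nlgn3 to 68.9%. The other 6 members, all 4 LRRTMs among them, were not called. These 3 decreases among 9 members compare with 6.16% of all genes called in either direction and 3.49% called lower.

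Nrxn3, a neurexin gene on chromosome 12 (chr12:88722876-90334935, plus strand, mm10), showed the deepest change. Its CPM were 229, 238 and 262 in the nontargeting males and 135, 111 and 110.4 in the Ash1l shRNA males. In females they were 211, 222 and 154 with nontargeting and 89.7, 129 and 82.1 with Ash1l shRNA. All 6 Ash1l shRNA libraries lay below every nontargeting library of their sex, which was so for 3.26% of all genes. On the log2 scale the change was −1.0 (SE 0.140, edgeR adjusted p = 1.1e-06). It was −1.03 in males (edgeR adjusted p = 0.000763) and −0.96 in females (0.00334), where 1.98% and 1.1% of all genes were called, and the difference between the sexes was −0.07 (95% interval −0.61 to 0.48). The female call was lost without Ash1l shRNA female replicate 1 (log2 −0.90, edgeR adjusted p = 0.0600) or replicate 3 (log2 −0.84, 0.0803), and when females were fitted apart from males (log2 −0.97, 0.112).

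Since Nrxn3 carried the deepest decrease, the windows before its 3 starts in the RefSeq promoter table (GRCm38.p6, plus strand, 250 bases up to each start) are shown, with CG dinucleotides in capitals. The first is chr12:88794254-88794503, the second chr12:88953140-88953389 and the third chr12:89812233-89812482. GENCODE M21 begins the gene upstream of all 3, and the counts pool transcripts from every start, so the level of each start was not measured.
Nrxn3 start 1: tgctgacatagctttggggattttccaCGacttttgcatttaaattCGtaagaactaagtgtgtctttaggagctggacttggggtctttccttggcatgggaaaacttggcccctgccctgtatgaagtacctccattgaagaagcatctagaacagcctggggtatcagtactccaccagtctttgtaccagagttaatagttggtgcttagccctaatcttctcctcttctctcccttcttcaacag
Nrxn3 start 2: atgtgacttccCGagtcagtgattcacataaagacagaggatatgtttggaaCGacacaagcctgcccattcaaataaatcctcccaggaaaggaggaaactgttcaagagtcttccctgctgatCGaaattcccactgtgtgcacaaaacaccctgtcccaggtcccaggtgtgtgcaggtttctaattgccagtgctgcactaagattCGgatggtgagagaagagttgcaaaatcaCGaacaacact
Nrxn3 start 3: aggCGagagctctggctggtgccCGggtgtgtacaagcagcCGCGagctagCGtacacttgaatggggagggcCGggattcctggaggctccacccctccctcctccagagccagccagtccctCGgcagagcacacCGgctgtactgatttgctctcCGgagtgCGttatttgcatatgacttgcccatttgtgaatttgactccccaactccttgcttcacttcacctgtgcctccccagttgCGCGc
The windows hold 2, 5 and 12 CG dinucleotides, against a median of 6 in 32851 mouse windows. A set of 6 short motifs was searched on both strands. None of GGGCGG (in 32.7% of all windows), CCAAT (33.8%), TATAAA (12.4%), CACGTG (6.02%), TGACGTCA (1.55%) and GCGCATGC (2.26%) is in any of the 3 windows.

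Nrxn2, the other neurexin followed here (chr19:6418731-6544169, plus strand), was lower in both sexes as well. Its CPM were 599, 615 and 614 in nontargeting males against 366, 415 and 406 in Ash1l shRNA males. In females they were 535, 526 and 559.7 against 228, 453 and 271. No Ash1l shRNA library reached the nontargeting range of its sex, and female replicate 2 was nearest to it. Nrxn2 thus had a log2 fold change of −0.69 (SE 0.12, edgeR adjusted p = 4.9e-05). It was −0.62 in males (edgeR adjusted p = 0.0331) and −0.77 in females (0.00785), with a difference of 0.14 between them (95% interval −0.32 to 0.61). The male call was lost without any single library of the groups compared (nontargeting or Ash1l shRNA male replicate 1, 2 or 3), at log2 −0.66 to −0.56 and edgeR adjusted p up to 0.163. It was also lost with no filter on low counts (log2 −0.63, edgeR adjusted p = 0.0575) and with no virus as control (log2 −0.59, 0.0506). The female call was lost without Ash1l shRNA female replicate 1 (log2 −0.58, edgeR adjusted p = 0.255) or replicate 3 (log2 −0.66, 0.133), and when females were fitted apart from males (log2 −0.77, 0.185).

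Nlgn3, a postsynaptic partner of neurexins on the X chromosome (chrX:101299168-101325963, plus strand), fell by less. Its CPM were 55.8, 58.8 and 67.5 in nontargeting males and 38.8, 31.2 and 53.1 in Ash1l shRNA males. In females they were 59.5, 69.4 and 56.2 and 31.3, 50.1 and 48.7. The groups did not overlap in either sex, although Ash1l shRNA male replicate 3 came within a few CPM of the nontargeting males. Its log2 fold change over both sexes was −0.54 (SE 0.124, edgeR adjusted p = 0.00326). When the other knockdowns were left out of the model it was −0.54 with an edgeR adjusted p of 0.0578, so the call rests on the spread shared over all 66 libraries. Within a sex Nlgn3 was not called, at −0.57 in males (edgeR adjusted p = 0.0879) and −0.51 in females (0.208). In females, where the replicate numbers were taken from the counts to pair the libraries, the blocked fit called it (log2 −0.51, edgeR adjusted p = 0.00432, with 4.43% of all genes called). Without Ash1l shRNA male replicate 3 the male value was −0.80 (edgeR adjusted p = 0.0185). Exons of Nlgn3 share 41.2% of their bases with Gm21986 on the same strand, so reads of these 2 genes could have been split or dropped in counting.

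**Figure D2:**
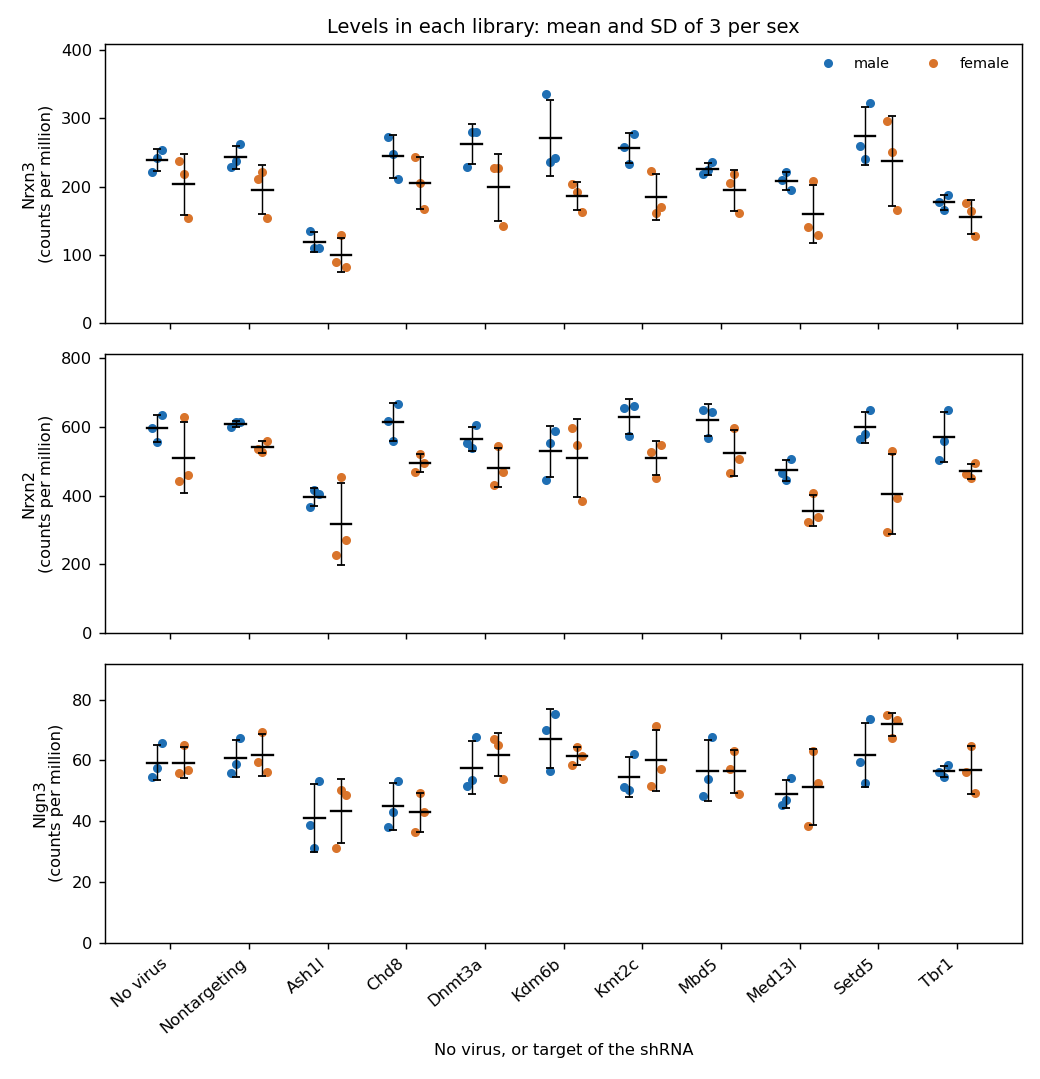
CPM of Nrxn3, Nrxn2 and Nlgn3 in each of the 66 libraries, by treatment, with males in blue and females in orange; horizontal bars are means and whiskers SD of 3 libraries. The 6 Ash1l shRNA libraries lie below all nontargeting libraries of their sex for each of the 3 genes.

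Of the other neuroligins, neither was called. Nlgn1 had a log2 fold change of 0.06 (95% interval −0.14 to 0.25) after Ash1l shRNA and Nlgn2 one of −0.07 (95% interval −0.39 to 0.26). Among the LRRTMs, Lrrtm1 was at −0.10 (95% interval −0.51 to 0.30), Lrrtm2 at 0.24 (−0.03 to 0.51), Lrrtm3 at 0.27 (−0.07 to 0.61) and Lrrtm4 at 0.38 (−0.02 to 0.78). These intervals do not show that the 6 genes were unaffected.

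Compared with the mean of the other 8 shRNAs, a comparison that uses no nontargeting library, Ash1l shRNA again had lower Nrxn3, Nrxn2 and Nlgn3, and in addition higher Lrrtm2. Here 4 of 9 members were called, 3 lower and 1 higher, against 16.4% of all genes (7.14% lower and 9.27% higher). The log2 differences were −0.96 for Nrxn3 (SE 0.114, edgeR adjusted p = 7.1e-09) and −0.54 for Nrxn2 (SE 0.0937, edgeR adjusted p = 2.1e-05). For Nlgn3 the difference was −0.42 (SE 0.0966, edgeR adjusted p = 0.00125). Lrrtm2, a postsynaptic neurexin ligand of excitatory synapses, was higher by 0.52 (SE 0.0981, edgeR adjusted p = 8.2e-05). The groups on the other side of this comparison include Med13l shRNA, where Lrrtm2 was itself called lower than nontargeting (log2 −0.78), and Kmt2c, Mbd5 and Tbr1 shRNA, where it was at −0.47, −0.45 and −0.50 and was not called without the block. Lrrtm4 was at 0.39 (edgeR adjusted p = 0.0634), and was called without Ash1l shRNA female replicate 2 (0.0280) or without replicate 1 of Chd8 (0.0307), Dnmt3a (0.0441) or Mbd5 shRNA females (0.0383).

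**Figure D3:**
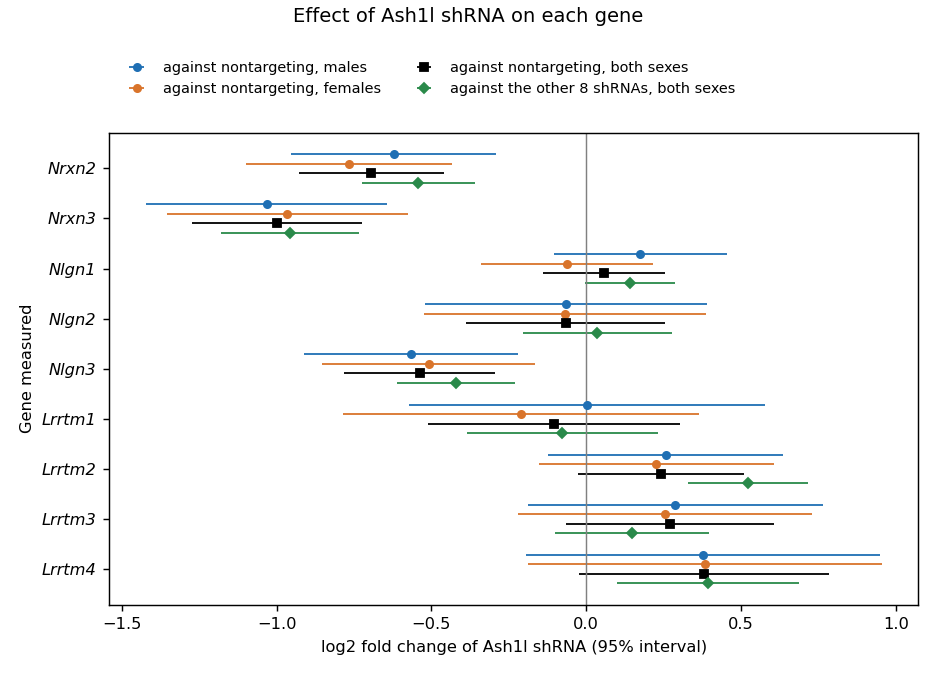
Log2 fold change with its 95% interval for each of the 9 genes after Ash1l shRNA, against nontargeting shRNA in males, in females and in both, and against the mean of the other 8 shRNAs. Nrxn2, Nrxn3 and Nlgn3 lie below 0 in all 4 comparisons, and the Lrrtm2 interval includes 0 in the 3 comparisons with nontargeting but not against the other 8 shRNAs.

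Markers of GABAergic neurons moved in the same libraries. Of the 6 markers of that list, 4 were called lower after Ash1l shRNA: Gad1 (log2 −1.28), Slc32a1 (−1.23), Lhx6 (−0.50) and Gad2 (−0.47). Dlx1 was at −0.07 and Dlx2 at 0.37, not called. Their summed CPM ranged from 607 to 906 (median 809) in the 6 Ash1l shRNA libraries, from 1094 to 1669 (median 1473) with nontargeting and from 1077 to 1684 with no virus. Of 5 excitatory markers, Slc17a6 was called higher (log2 0.95), and their sum ranged from 832 to 892 CPM against 632 to 769.7 CPM with nontargeting. Of 7 general neuron markers 0 were called, and of 9 astrocyte and radial glia markers 0. Of 4 proliferation markers, Top2a was called lower (log2 −1.003, edgeR adjusted p = 0.0498), and their sums ranged from 1.84 to 4.16 CPM against 3.07 to 8.08 CPM. The part of these markers in the decreases of Nrxn2, Nrxn3 and Nlgn3 was not tested. In bulk RNA, fewer cells of a type and less RNA per cell cannot be told apart.

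Knockdown of Med13l, a subunit of the Mediator complex's kinase module, was followed by lower levels of 3 members and a higher level of 1. Lrrtm2 fell to 58.4% of control, Nlgn1 to 69.2% and Nrxn2 to 71.6%, while Lrrtm3 rose to 139%. That is 4 of 9, against 24.1% of all genes called (12.3% lower and 11.8% higher) in a knockdown with many changes. With the replicate number as a block 8 of 9 were called, 7 lower and 1 higher, against 41.5% of all genes. From their counts, these libraries were taken as paired in females only.

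For Lrrtm2 the CPM were 73.0, 66.8 and 72.5 in nontargeting males and 37.7, 44.5 and 40.4 in Med13l shRNA males. In females they were 69.6, 69.5 and 60.1 and 43.2, 39.6 and 34.98. Every Med13l shRNA library lay below every nontargeting library of its sex, a pattern shown by 7.02% of all genes. Lrrtm2 had a log2 fold change of −0.78 (SE 0.138, edgeR adjusted p = 2.6e-05), with −0.79 in males (edgeR adjusted p = 0.00549) and −0.76 in females (0.00696), where 8.06% and 10.2% of all genes were called.

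Nlgn1, the neuroligin of excitatory synapses (chr3:25426215-26332460, minus strand), had CPM of 62.5, 60.3 and 64.2 in nontargeting males and 45.0, 43.2 and 51.6 in Med13l shRNA males. In females they were 59.5, 76.0 and 63.4 and 36.7, 46.3 and 44.5. Again the groups did not overlap in either sex. Nlgn1 had a log2 fold change of −0.53 (SE 0.101, edgeR adjusted p = 7.4e-05). An antisense gene, A830092H15Rik, covers 9.16% of its exon bases.

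Nrxn2 had CPM of 466, 446 and 507 in Med13l shRNA males and 323, 408 and 338 in Med13l shRNA females, all below the nontargeting libraries of their sex given above. Nrxn2 had a log2 fold change of −0.48 (SE 0.119, edgeR adjusted p = 0.00199). Nrxn3, the member most changed after Ash1l shRNA, was at −0.26 after Med13l shRNA (edgeR adjusted p = 0.178), and Nlgn3 was at −0.29 (0.0828). Both were called lower without Med13l shRNA female replicate 2, at −0.37 (edgeR adjusted p = 0.0457) for Nrxn3 and −0.37 (0.0276) for Nlgn3.

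The increase of Lrrtm3, whose gene lies within the alpha-catenin gene Ctnna3 on the opposite strand (chr10:63928472-64090277), depended on single libraries. Its CPM were 20.3, 22.6 and 19.7 in nontargeting males and 31.7, 24.8 and 35.6 in Med13l shRNA males. In females they were 22.7, 18.7 and 31.9 and 37.0, 18.1 and 41.6. The female groups overlapped, with replicate 2 lowest in both. Its log2 fold change over both sexes was 0.48 (SE 0.172, edgeR adjusted p = 0.0348). It lost its call without any one of 8 of the 12 libraries (nontargeting male replicate 1 or 3, nontargeting female 1 or 2, Med13l shRNA male 1 or 3, Med13l shRNA female 1 or 3), with adjusted p up to 0.126. With no virus as control it was 0.36 (edgeR adjusted p = 0.123), and with the other knockdowns left out of the model 0.48 (0.101).

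**Figure D4:**
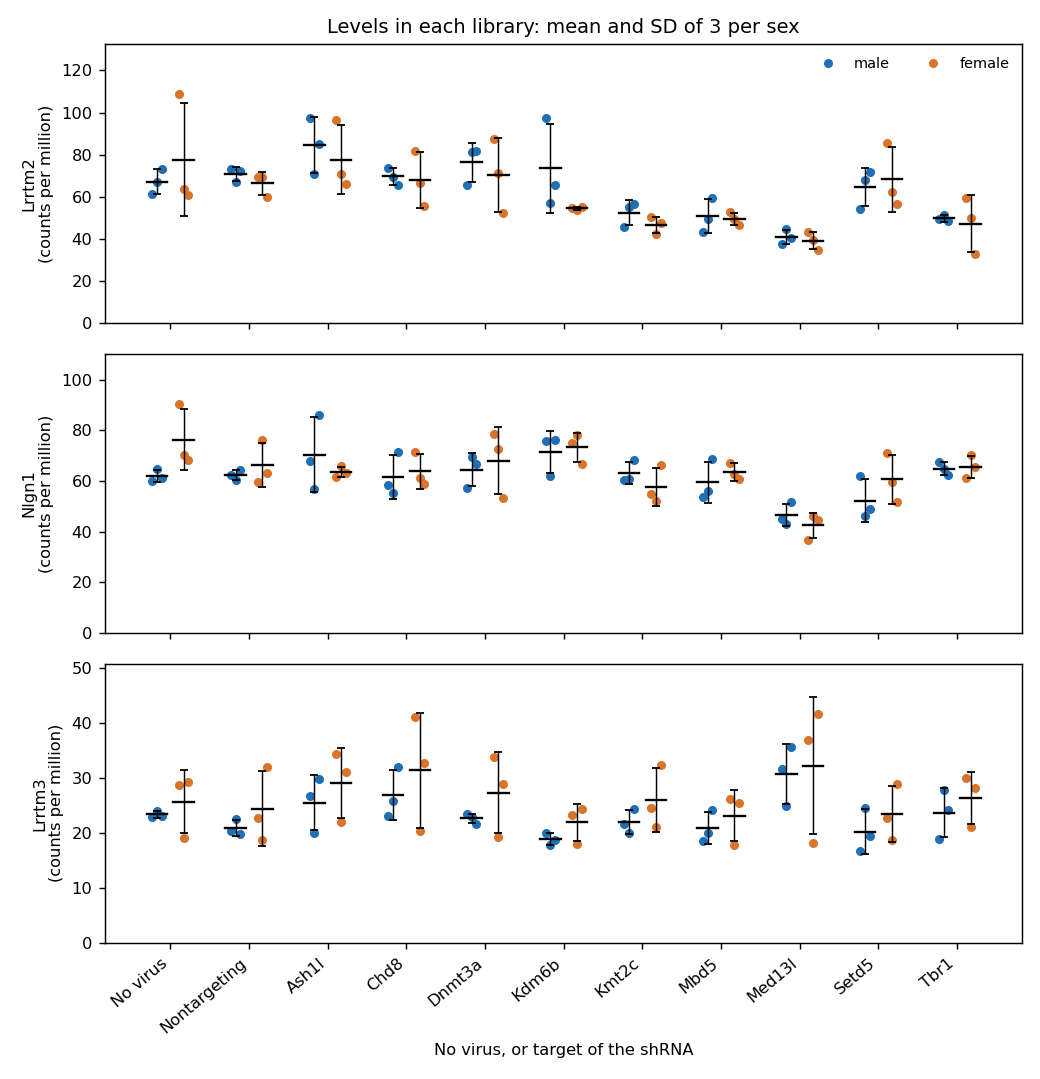
CPM of Lrrtm2, Nlgn1 and Lrrtm3 in each of the 66 libraries, by treatment, with males in blue and females in orange; horizontal bars are means and whiskers SD of 3 libraries. Lrrtm2 and Nlgn1 lie below all nontargeting libraries of the same sex after Med13l shRNA, and Lrrtm2 also lies below those of its sex after Kmt2c, Mbd5 and Tbr1 shRNA.

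Several marker lists moved after Med13l shRNA as well. Of 6 GABAergic markers 3 were called lower, namely Slc32a1 (log2 −0.89), Gad1 (−0.62) and Lhx6 (−0.58). Their sum ranged from 742 to 1386 CPM (median 1003) against 1094 to 1669 CPM with nontargeting. Of 9 astrocyte and radial glia markers, Aqp4 and Gja1 were called lower, with sums of 339 to 472 CPM against 458 to 709.6 CPM. Of 4 tested markers of the oligodendrocyte lineage, Pdgfra was called lower (log2 −1.205), with sums of 6.16 to 16.3 CPM against 10.7 to 12.98 CPM. Of 5 excitatory markers, Bcl11b was called lower (log2 −0.57) and Neurod6 higher (0.45), with sums of 596 to 970.2 CPM. The sum of the 7 general neuron markers ranged from 5567 to 6580.4 CPM against 6866 to 7763 CPM. Of these 7 only Syt1 was called, from 1191 CPM with nontargeting to 235 CPM (log2 −2.34), and the list's median was −0.04. All 4 proliferation markers were called lower. Their part in the changes of the members was not tested.

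Knockdown of Chd8, a chromatin remodeller, was followed by a lower level of Nlgn3, with neither neurexin called. Nlgn3 had CPM of 38.2, 43.2 and 53.3 in Chd8 shRNA males and 36.6, 49.4 and 42.9 in Chd8 shRNA females, all below the nontargeting libraries of their sex, as was so for 8.73% of all genes. Nlgn3 changed by −0.48 on the log2 scale (SE 0.124, edgeR adjusted p = 0.00305), at 71.8% of control. This was 1 of 9 members, against 22.3% of all genes called. Nrxn2 was at −0.06 (95% interval −0.29 to 0.17) and Nrxn3 at 0.04 (−0.23 to 0.31).

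The replicate numbers were taken to pair the Chd8 libraries with the nontargeting ones, from their counts and not from the labels. With the number as a block 4 of 9 members were called, against 36.9% of all genes. The added calls were a decrease of Nlgn2 (log2 −0.27, SE 0.0705, edgeR adjusted p = 0.00193) and increases of Lrrtm3 (0.35, SE 0.105, 0.00675) and Lrrtm4 (0.38, SE 0.114, 0.00612). Lrrtm4 (chr6:80018877-80810143, plus strand) binds heparan sulfate chains of presynaptic partners, and the antisense gene Gm4409 covers 25.1% of its exon bases. Its CPM were 10.7, 10.6 and 10.0 in nontargeting males and 11.2, 12.3 and 15.7 in Chd8 shRNA males, and 13.5, 9.50 and 9.13 and 24.8, 11.1 and 10.2 in females. Each Chd8 shRNA library was above the nontargeting library of the same number and sex, although the female groups overlapped. Without the block Lrrtm3 was called when nontargeting female replicate 3 (edgeR adjusted p = 0.0465) or Chd8 shRNA female replicate 2 (0.0353) was left out. Among the markers, Gad2 (log2 −0.69), Slc17a7 (−0.55), Slc17a6 (−0.51) and Slc32a1 (−0.50) were called lower after Chd8 shRNA. In the astrocyte and radial glia list, Gfap and Slc1a2 were called lower. Of 7 general neuron markers, Syt1 (log2 −0.92) and Map2 (−0.35) were called lower and Tubb3 (0.33) and Stmn2 (0.23) higher, with sums of 6555 to 7340.02 CPM. The sum of the GABAergic list ranged from 982 to 1353 CPM and that of the excitatory list from 638 to 782 CPM. Their part in these changes was not tested.

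Lrrtm2 was lower than nontargeting after Kmt2c, Mbd5 and Tbr1 shRNA by about the same amount, without a call in the fit without a block. After Kmt2c shRNA its CPM were 45.7, 55.2 and 56.4 in males and 50.3, 42.5 and 47.5 in females. After Mbd5 shRNA they were 43.3, 49.5 and 59.5 in males and 52.7, 49.4 and 46.8 in females. After Tbr1 shRNA they were 49.4, 51.6 and 48.5 in males and 59.4, 49.8 and 32.7 in females. All 6 libraries of each knockdown lay below every nontargeting library of their sex. Such a separation toward lower values was found in 1.59% of all genes for Kmt2c, 1.29% for Mbd5 and 1.98% for Tbr1.

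The log2 fold changes of Lrrtm2 were −0.47 for Kmt2c (SE 0.138, edgeR adjusted p = 0.124), −0.45 for Mbd5 (SE 0.137, 0.146) and −0.50 for Tbr1 (SE 0.138, 0.0508). The replicate numbers were taken to pair the libraries of these 3 knockdowns, from their counts and not from the labels. With the number as a block Lrrtm2 was called in each, at −0.47 for Kmt2c (edgeR adjusted p = 0.0036), −0.45 for Mbd5 (0.00476) and −0.51 for Tbr1 (0.0007). It was called too with no virus as control, at −0.55 (edgeR adjusted p = 0.0365), −0.53 (0.0463) and −0.57 (0.0140). Without Tbr1 shRNA female replicate 1 the Tbr1 value was −0.60 (edgeR adjusted p = 0.0247). The 3 results share the nontargeting libraries and are not independent. Of 9 astrocyte and radial glia markers, Slc1a2 was called lower after Kmt2c shRNA (log2 −0.81, edgeR adjusted p = 0.00738), with sums of 359.8 to 546 CPM, and after Tbr1 shRNA (−1.33), with sums of 356 to 654 CPM, against 458 to 709.6 CPM with nontargeting. No marker was called after Mbd5 shRNA. The median log2 fold change of the 9 astrocyte and radial glia markers was −0.81 after Kmt2c shRNA and 0.23 after Tbr1 shRNA. The part of Slc1a2 in the values of Lrrtm2 was not tested. Lrrtm2 lies within the alpha-catenin gene Ctnna1 on the opposite strand, which shares 1.58% of its exon bases.

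The remaining members gave few calls in the knockdowns with few changes. Without a block, edgeR called 0 of 9 members after Dnmt3a shRNA (1.4% of all genes), Kdm6b shRNA (0.966%), Kmt2c shRNA (0.694%), Mbd5 shRNA (0.663%), Setd5 shRNA (5.3%) and Tbr1 shRNA (1.33%). At an unadjusted p below 0.05 there were 0 for Dnmt3a, Kdm6b and Setd5, 1 for Kmt2c, 1 for Mbd5 and 2 for Tbr1. DESeq2 called 0 in 5 of these knockdowns and 1, Lrrtm2, for Tbr1. Beside Lrrtm2, the blocked fit of the knockdowns taken as paired called Nrxn3 after Tbr1 shRNA, Nlgn2 after Dnmt3a shRNA and Lrrtm1 after Setd5 shRNA, all lower. The blocked counts of members and shares of all genes were 1 and 6.97% for Dnmt3a, 1 and 2.97% for Kmt2c, 1 and 3.32% for Mbd5, 1 and 16.2% for Setd5, and 2 and 6.57% for Tbr1.

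Nrxn3 after knockdown of Tbr1, a transcription factor of excitatory cortical neurons, had CPM of 178, 165 and 188 in males and 175, 164 and 127 in females. The female libraries overlapped with the nontargeting females. The fold change on the log2 scale was −0.39 (SE 0.139, edgeR adjusted p = 0.194) without the block and −0.39 (SE 0.0949, 0.00548) with it. Of 9 astrocyte and radial glia markers, only the transporter gene Slc1a2 was called after Tbr1 shRNA, lower (log2 −1.33). The median of that list was 0.23, and the part of Slc1a2 was not tested. GABAergic markers were not called after Tbr1 shRNA (0 of 6, sums of 993 to 1427 CPM), nor excitatory ones (0 of 5, sums of 541 to 704 CPM).

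Nlgn2, the neuroligin of inhibitory synapses (chr11:69823122-69837784, minus strand), was at −0.22 after knockdown of the DNA methyltransferase gene Dnmt3a (95% interval −0.55 to 0.10, edgeR adjusted p = 0.747). With the block it was −0.24 (SE 0.0706, edgeR adjusted p = 0.0252). Of 6 GABAergic markers only Gad2 was called after Dnmt3a shRNA, lower (log2 −0.57). Their sum ranged from 890 to 1459 CPM, against 1094 to 1669 CPM with nontargeting. Of 9 astrocyte and radial glia markers only Gfap was called, higher (2.14). Their sum ranged from 485 to 1354 CPM, against 458 to 709.6 CPM. Their part was not tested.

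Lrrtm1 (chr6:77242689-77257791, plus strand) was at −0.32 in the libraries labelled Setd5 shRNA (SE 0.208, edgeR adjusted p = 0.441) and at −0.35 with the block (SE 0.102, 0.0128). Its CPM were 39.5, 70.4 and 52.3 in nontargeting females and 21.9, 54.8 and 34.8 in the females labelled Setd5 shRNA. In males they were 61.5, 48.1 and 55.5 and 68.7, 40.4 and 44.6, where the high first value belongs to the library with the Setd5 level of a control. The low first female value belongs to the library with Y-linked counts. Without the male library and the library labelled Kdm6b shRNA male replicate 1, the unblocked value was −0.46 (edgeR adjusted p = 0.234). Without the 3 libraries that go against their labels, the blocked fit called 2 members: Lrrtm1 at −0.40 (edgeR adjusted p = 0.00268) and Nlgn1 at −0.33 (0.0117). Unblocked, the same libraries gave 0 members, with Lrrtm1 at −0.32 (edgeR adjusted p = 0.547) and Nlgn1 at −0.32 (0.0837). For the libraries labelled Kdm6b shRNA both fits called 0. Among the markers, Slc32a1 (log2 −0.62, edgeR adjusted p = 0.0175), Top2a (−1.57, 0.00209) and Ccnb1 (−1.97, 0.0186) were called lower in the libraries labelled Setd5 shRNA, and Stmn2 (0.24, 0.0400) higher. Without the 3 libraries, Slc32a1 (−0.67, edgeR adjusted p = 0.0224) and Top2a (−1.46, 0.0193) were called, and Ccnb1 (−1.56, 0.130) and Stmn2 (0.24, 0.0830) were not. With all libraries this was 1 of 6 GABAergic markers, with sums of 1090.17 to 1794.9 CPM, and 2 of 4 proliferation markers, with sums of 1.80 to 3.28 CPM against 3.07 to 8.08 CPM with nontargeting. Their part was not tested.

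The levels of several members went with the replicate number, mainly in females. In all 11 female groups, Nlgn2 and Lrrtm1 were highest in replicate 2, Lrrtm4 was highest in replicate 1 and Lrrtm3 was lowest in replicate 2. The median ratio of replicate 2 to replicate 1 in females was 1.70 for Nlgn2, 1.85 for Lrrtm1, 0.678 for Lrrtm3 and 0.573 for Lrrtm4. Lrrtm2 was highest in female replicate 1 in 10 of 11 groups, and Nrxn3 was lowest in female replicate 3 in 10 of 11. In males the same ratios were 0.953 for Nlgn2, 0.909 for Lrrtm1, 1.049 for Lrrtm3 and 1.005 for Lrrtm4. Male replicate 3 was highest for Nlgn3 in 11 of 11 groups, for Nlgn2 in 10 and for Nrxn2 in 8. The labels do not say what a replicate number stands for.

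**Figure D5:**
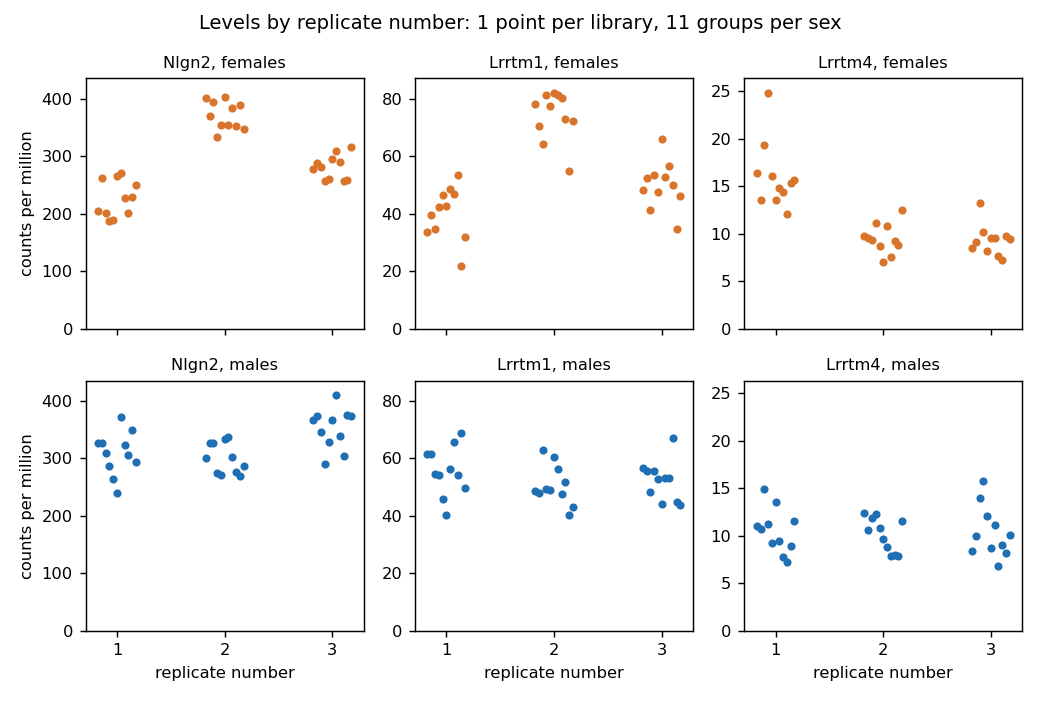
CPM of Nlgn2, Lrrtm1 and Lrrtm4 in each library by replicate number, females above and males below; each point is 1 library and each column of points holds the 11 groups. Female replicate 2 is highest for Nlgn2 and Lrrtm1 in all 11 groups, and female replicate 1 is highest for Lrrtm4.

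Other genes of the pathway were read from 3 lists, chosen from textbook knowledge with earlier results of these data known. The first held 35 partners of neurexins and neuroligins (33 in the table, and all 33 tested). The others held 26 other synaptic organizers and 6 genes of neurexin splicing and shedding. After Ash1l shRNA 3 of 33 partners were called (9.09%, against 6.16% of all genes), all lower. They were Nxph1 (log2 −0.79, SE 0.105, edgeR adjusted p = 3.2e-07), a secreted ligand of alpha-neurexins, Lin7a (−1.04, SE 0.151, 1.9e-06), an adaptor of presynaptic scaffolds, and Cbln2 (−1.12, SE 0.197, 6.9e-05), a secreted protein that bridges neurexins to delta glutamate receptors. The other organizers had 2 of 26 called lower and the splicing and shedding genes 0 of 6. The median log2 fold change was 0.02 over the partners, −0.05 over the organizers and −0.07 over the 9 members, beside 0.01 over all genes. With the replicate number as a block, taken to pair these libraries in females only, 2784 of all 16145 genes were called. Among the lists, 4 partners and 5 organizers were then called lower, 1 of each higher and 3 splicing and shedding genes higher.

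After Med13l shRNA 5 of 33 partners were called lower and 1 higher (18.2%, against 24.1% of all genes), with 6 of 26 organizers lower and 1 of 6 splicing and shedding genes higher. Slitrk5, a postsynaptic organizer, was at −0.73 (edgeR adjusted p = 1.7e-08) and Nxph1 at −0.71 (7.0e-07). The median of the 9 members was −0.27, that of the organizers −0.23 and that of all genes −0.01. With the block, again taken as paired in females only, 10 partners were called lower and 2 higher (41.5% of all genes called). There were 13 organizers lower and 1 higher, and 1 splicing and shedding gene higher. After Chd8 shRNA 6 partners were called lower and 4 higher (30.3%, against 22.3%). The adaptor Lin7c was at −2.17 (edgeR adjusted p = 1.5e-18) and the latrophilin Adgrl1 at −0.79 (2.1e-06), while the organizers had 4 lower and 1 higher and the splicing and shedding genes 2 higher. With the block 7 partners were called lower and 7 higher (36.9% of all genes called), 6 organizers lower and 4 higher, and 3 splicing and shedding genes higher.

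In the libraries labelled Setd5 shRNA 5 of 33 partners were called lower (15.2%, against 5.3%), led by the scaffold gene Cask (log2 −0.65, edgeR adjusted p = 0.000172) and Dag1 (−1.11, 0.000218), which encodes dystroglycan. Without the 3 libraries that go against their labels, 3 of 33 were called lower (4.92% of all genes called), with Cask at −0.80 (edgeR adjusted p = 3.5e-08) and Dag1 at −1.41 (7.3e-09). With the block 11 partners and 3 organizers were called lower and 3 splicing and shedding genes higher (16.2% of all genes called), and without the 3 libraries these counts were 8, 2 and 2 (15.2%). Dag1 was also the 1 partner called after Kmt2c shRNA (−0.88, edgeR adjusted p = 0.0120). For Dnmt3a, Kdm6b, Mbd5 and Tbr1 shRNA, edgeR called 0 genes of the 3 lists without a block. With the block Tbr1 shRNA had 3 partners lower and 1 higher and 4 organizers lower (6.57% of all genes called). Dnmt3a shRNA had 2 partners and 1 organizer lower and 1 splicing and shedding gene higher (6.97%). After Kmt2c shRNA 1 partner was called lower and 1 higher (2.97%), and after Mbd5 shRNA 0 genes of the lists (3.32%). In the libraries labelled Kdm6b shRNA, taken as paired in neither sex, 2 partners were called lower and 1 higher, with 2 organizers and 1 splicing and shedding gene higher. Over all genes 1270 of 16145 were called there. Without the 3 libraries that go against their labels, 3 partners were called lower and 0 higher (9.48% of all genes called). There were then 1 organizer lower and 2 higher, and 1 splicing and shedding gene higher.

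Over the 22 group means, the genes whose log2 CPM followed a called member closely were not other members. For Nrxn3 they were Ptpn11 (Pearson r 0.904) and Usp8 (0.884), and Nrxn2 was followed by the vesicular GABA transporter gene Slc32a1 (0.890). For Nlgn3 they were Canx (0.928) and Gclm (0.904), and for Nlgn1 Zfp81 (0.927) and Cacna1f (0.872). For Lrrtm2 they were Zeb2 (0.889) and Tlk1 (0.875), and Lrrtm3 was followed by Anapc11 (0.904). Among the members, the 2 neurexins had an r of 0.787 and Nlgn1 and Lrrtm2 one of 0.603, while Lrrtm3 had −0.664 with Nlgn2 and −0.640 with Nlgn3. These coefficients describe 22 groups of libraries that share the fit's scaling and the replicate pattern above, and the genes were chosen for high coefficients among 16145.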

How the data were processed

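The authors deposited a single table of raw read counts, with 48716 gene rows and no normalization. STAR, featureCounts and the build mm10 are named per the submitters' processing notes. Versions, settings, strand use and annotation are not given in the sources used here, and the kit was stranded per the labels' protocols. A further 6 columns matched no sample and were not used here. Control columns named Luc were taken as the nontargeting shRNA. Rows without a symbol (18483, with 0.69% to 1.41% of counts) entered neither library sizes nor tests. Among values of 1 to 20, 26.7% were odd, against 49.1% among high values, so halved counts were tried as an alternative. No pair of replicate libraries agreed within sampling noise (chi-square per gene 7.92 to 386).

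The deposited counts entered edgeR 4.0.16 (R 4.3.3): filterByExpr, TMM scaling (0.874 to 1.06), robust quasi-likelihood F test, 1 mean per group over 66 libraries, Benjamini-Hochberg over 16145 genes, threshold 0.05. The test was tried on simulated data first. Intervals are 95%, as estimate ± a normal multiple of the SE. DESeq2 1.42.0 was an alternative. Lrrtm4 had the lowest counts of the members, and counts of amplified reads are not independent molecules. Gene coordinates are those of GENCODE M21 on mm10.

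The members and lists were chosen with earlier results of these data known. Named genes were the 9 members, Ash1l, the called list genes with the smallest adjusted p (up to 3 for Ash1l, up to 2 for other targets), the 2 genes closest to each called member by Pearson r over 22 groups, and markers by list. Some of the closest genes are not reported here. Replicate numbers come from the labels. They were taken to pair a knockdown with its controls where every same-numbered pair deviated together in both sexes (correlation above 0.1). This held for Chd8, Dnmt3a, Kmt2c, Mbd5, Setd5 and Tbr1, for Ash1l and Med13l in females only, and for Kdm6b in neither sex. The pairing was thus inferred from these counts and not from the labels. The promoter table held windows for 6 of 9 members and lacked Nrxn2, Nlgn3 and Lrrtm2.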

Additional observations from a re-analysis of the deposited data

How the results depend on the processing

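Gene values were recomputed only for members called in the main fit, with the block, or with the block and without the 3 libraries that go against their labels. Values near 0 were thus mostly left out, so a change of direction was unlikely from the start. No recomputed value changed direction under the alternatives run. Of the recomputed gene values other than those leaving out 1 library, 243 kept their side of the threshold, 39 gained a call and 7 lost one. The gains include values that were recomputed because the block called them. With the replicate number as a block, members called were 4 for Chd8, 1 for Dnmt3a, 1 for Kmt2c, 1 for Mbd5, 8 for Med13l, 1 for Setd5 and 2 for Tbr1, with 10 calls in males and 11 in females. Where numbers were not taken to pair both sexes, the block added a higher Lrrtm4 for Ash1l (log2 0.37, edgeR adjusted p = 0.0188). For Med13l it added lower Nrxn3, Nlgn2, Nlgn3 and Lrrtm4. Over all genes it moved the calls from 995 to 2784 for Ash1l, from 3888 to 6705 for Med13l and, with no member called, from 156 to 1270 for Kdm6b. There, 3 of 3 female and 2 of 3 male libraries of Ash1l and of Med13l shRNA correlated best with the control of their own number. This is a hint from the data and not from the design, as is the pairing taken for Chd8, Dnmt3a, Kmt2c, Mbd5, Setd5 and Tbr1. With the block and only the control groups beside each shRNA, the counts were 4 for Chd8, 1 for Dnmt3a, 1 for Kmt2c, 2 for Mbd5, 7 for Med13l, 2 for Setd5 and 3 for Tbr1. With no virus as control, 1 member was called for Kmt2c, 1 for Mbd5 and 1 for Tbr1. Fitting only the groups compared gave 1 for Kmt2c, DESeq2 gave 1 for Tbr1, and leaving out the 2 male libraries that go against their labels gave 1 for Tbr1. Leaving out all 3 such libraries, chosen after seeing the data, gave 2 for Setd5 with the block. Fitting each sex separately gave 7 calls in males and 2 in females, and the female calls of Nrxn2 (edgeR adjusted p = 0.185) and Nrxn3 (0.112) after Ash1l shRNA were lost. Leaving out 1 library at a time gave 3 to 3 members for Ash1l, 1 to 2 for Chd8, 3 to 6 for Med13l (6 without Med13l shRNA female replicate 2), 0 to 1 for Tbr1, 4 to 5 for Ash1l against the other 8 shRNAs, 2 to 3 calls in males and 4 to 7 in females, and 0 in the other comparisons. A blocked comparison of male with female controls was not run, since the block lies within sex. Shares of all genes called are not given for the fits with no virus as control, with only some groups, with DESeq2, by sex or without 1 or 2 libraries. Whether those member counts moved with the calls over all genes was therefore not shown. The causes of these shifts were not tested.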

Other observations

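Gene span differs widely among the members lowered after Ash1l shRNA. Nrxn3 spans 1612060 bases, Nrxn2 125439 and Nlgn3 26796. Of the 1747 tested genes at least as long as Nrxn2, 80 (4.58%) were called lower and 40 higher after Ash1l shRNA, beside 3.49% lower among all genes. Of the 10 tested genes at least as long as Nrxn3, 1 was called lower, which is Nrxn3 itself. The median log2 fold change of these 10 genes was −0.11.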
